A study of Mus musculus with 15 samples.

Results

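Bcor and 9 genes whose products act with it were followed in the posterior eyecups of mice with 0, 1 or 2 mutant alleles of Tmem135. The 10 genes were Bcor, Bcorl1, Kdm2b, Pcgf1, Ring1, Rnf2, Rybp, Yaf2, Usp7 and Bcl6, out of 55421 genes counted. All 10 were among the 18979 genes that passed the filters on variance and low counts. Bcor was chosen by its fall with allele number in these same libraries, so its values are a description and carry no test. The 9 partners were chosen by what their proteins are known to do, and the question asked of them was whether they fell with allele number as Bcor did.

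The libraries came from 4 WT, 6 FUN025/+ and 5 FUN025/FUN025 mice on the C57BL/6J background, aged 2.5 months. FUN025 is a mutation of Tmem135, which encodes a membrane protein linked to mitochondria and peroxisomes. The neural retina had been removed, which left the retinal pigment epithelium with choroid and sclera. One library was made from each mouse, both sexes were used without being labelled, and the eyecups of a mouse were pooled. Total counts were between 18094977 and 20029919 in WT libraries and between 10903183 and 15038383 in the mutant libraries, so depth and genotype cannot be told apart. Xist, the RNA that coats the inactive X chromosome of females, exceeded 100 CPM in 2 of 4 WT, 3 of 6 FUN025/+ and 2 of 5 FUN025/FUN025 libraries. For both mutant genotypes these counts differ from the numbers of females that the study lists at this age. No library was given a sex here, and whether this bears on the genotype labels was not tested. CPM is the count of a gene relative to the TMM-scaled total of its library. Tmem135 itself stood at 64 ± 2.99 CPM (SD, n = 4) in WT, 75 ± 7.3 CPM (n = 6) in FUN025/+ and 88.3 ± 4.57 CPM (n = 5) in FUN025/FUN025 eyecups. Its mutant genotypes overlapped, with FUN025/+ libraries up to 86.3 CPM and FUN025/FUN025 libraries from 82.5 CPM.

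Polycomb repressive complexes hold developmental genes silent by modifying histones. The PRC1 family attaches ubiquitin to histone H2A through a RING-type ligase, Ring1 or Rnf2 (RING1A or RING1B), bound to a PCGF protein. In the variant called PRC1.1 the PCGF protein is Pcgf1, the scaffold is Bcor or its paralog Bcorl1, and Kdm2b brings the complex to CpG islands through a zinc finger that reads unmethylated CG. Rybp or Yaf2 takes the place that CBX proteins hold in canonical PRC1, and Usp7 is a deubiquitinase found with the complex. BCOR was first known as a corepressor of the zinc finger protein BCL6, a repressor best studied in germinal centre B cells.

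Promoter sequences were read for 7 of the 10 genes from RefSeq on GRCm38.p6. The Bcor and Bcl6 promoters are shown because of the physical partnership of their products, and each is the stretch of 250 bases before a start site, written 5′ to 3′ on the minus strand. Capitals mark the palindrome TTCNNNGAA, the core that BCL6 and STAT proteins are known to bind, which was searched on both strands. The Bcor promoter lies at chrX:12160356-12160605 and the Bcl6 promoter at chr16:23988853-23989102.
Bcor: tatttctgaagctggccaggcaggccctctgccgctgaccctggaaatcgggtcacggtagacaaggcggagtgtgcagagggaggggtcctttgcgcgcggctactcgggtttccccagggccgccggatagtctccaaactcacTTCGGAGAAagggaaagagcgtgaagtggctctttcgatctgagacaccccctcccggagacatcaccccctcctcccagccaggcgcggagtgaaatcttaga
Bcl6: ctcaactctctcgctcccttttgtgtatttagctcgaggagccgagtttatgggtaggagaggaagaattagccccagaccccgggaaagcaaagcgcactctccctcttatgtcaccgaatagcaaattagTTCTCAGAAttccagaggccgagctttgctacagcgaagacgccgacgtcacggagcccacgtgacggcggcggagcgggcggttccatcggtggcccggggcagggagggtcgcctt
The palindrome stood in 4 of the 12 promoters listed for these 7 genes, all of them of Bcor (a pair that mostly overlaps) or Bcl6, and in 7.02% of the 32851 promoters of the table. The Bcor promoter held 16 CG pairs and the Bcl6 promoter 21, against a median of 6 over all promoters. All 12 promoters lay above that median, with 12 to 55 CG pairs. A match of letters is a description and not a bound site.

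Bcor (GRCm38 chrX:12036740-12160355, minus strand) had a lower mean with each mutant allele. The WT libraries held 83.4, 79.7, 81.1 and 82.8 CPM. The FUN025/+ libraries ran from 72.6 to 81.2 CPM with a median of 77.9. The FUN025/FUN025 libraries held 68.8, 73.6, 69.4, 70.7 and 69.6 CPM. Every FUN025/FUN025 library lay below every WT library, while the FUN025/+ libraries overlapped both other genotypes. The means were 81.8 ± 1.66 (SD, n = 4), 77.1 ± 3.15 (n = 6) and 70.4 ± 1.91 CPM (n = 5). The log2 fold change against WT was -0.084 (SE 0.0411, 95% interval -0.17 to 0.002) in FUN025/+ eyecups, an interval that holds 0. In FUN025/FUN025 eyecups it was -0.22 (SE 0.0428, 95% interval -0.31 to -0.13), a level 13.9% lower (percent change -13.9). The slope was -0.11 in log2 CPM per mutant allele (SE 0.022, 95% interval -0.15 to -0.063). At an FDR of 0.01, 2.14% of all tested genes had a slope past the threshold and 0.869% of all tested genes a negative one, and at 0.05 the share past the threshold was 8.27%; Bcor was picked from such genes, so nothing is read from these shares for it.

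Markers of choroidal endothelium moved with Bcor. All 7 of these markers had lower means in both mutant genotypes, with 2 of 7 past the threshold in FUN025/+ and 6 of 7 in FUN025/FUN025 eyecups, against 6.61% and 7.02% of all genes called lower. Their summed level was 1091 to 1289 CPM in WT, 863 to 1187 CPM in FUN025/+ and 779 to 969 CPM in FUN025/FUN025 libraries, and none of the 7 was near 0. With the mean of these markers as a covariate, the Bcor slope was -0.081 and its log2 fold change in FUN025/FUN025 eyecups was -0.16. With an offset for the GC content of genes in each library the slope was -0.087. In whole tissue, fewer cells of a type and less RNA per cell cannot be told apart.

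Of the 9 partners, none followed Bcor past a threshold on allele number. With limma's moderated trend, 0 of 9 slopes passed at an FDR of 0.01 and 0 of 9 at 0.05, and 3 of 9 had an unadjusted p under 0.05, against 24.8% of all genes. These 3 pointed in different directions: Pcgf1 had a negative slope, Kdm2b and Rybp positive ones. By edgeR's quasi-likelihood test and by limma-voom of allele number the count past the threshold was also 0, against 2.14% and 2.87% of all genes. In all, 4 of 9 slopes were negative and 5 positive, with a median of 0.017 against -0.0042 over all genes tested. For 6 of 9 partners the 95% interval of the slope held 0. The slope of Bcor lay inside the intervals of 3 partners, Pcgf1, Ring1 and Bcl6, so for these a fall of the same size cannot be set aside at this depth. It lay outside the intervals of Bcorl1, Kdm2b, Rybp, Yaf2, Rnf2 and Usp7, for Bcorl1 by less than the rounding shown. The interval of the Bcor slope itself, -0.15 to -0.063, overlaps that of Bcorl1, -0.11 to 0.052. A fall of similar size is therefore not set aside for Bcorl1 either.

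**Figure D1:**
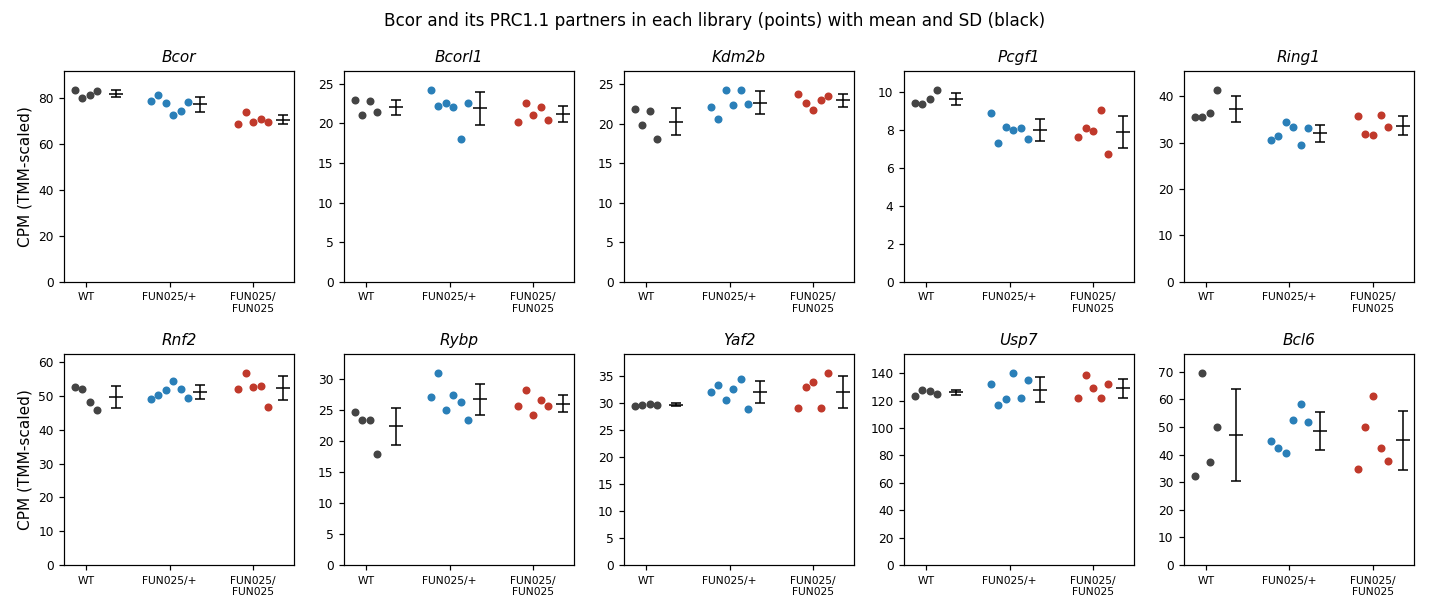
Level of each of the 10 genes (CPM, linear axis from 0) in every library by genotype, with the mean and SD beside the points (n = 4 WT, 6 FUN025/+ and 5 FUN025/FUN025). Bcor falls from a WT mean of 81.8 to 70.4 CPM in FUN025/FUN025, Pcgf1 and Ring1 have their highest mean in WT, and Kdm2b and Rybp their lowest.

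**Figure D2:**
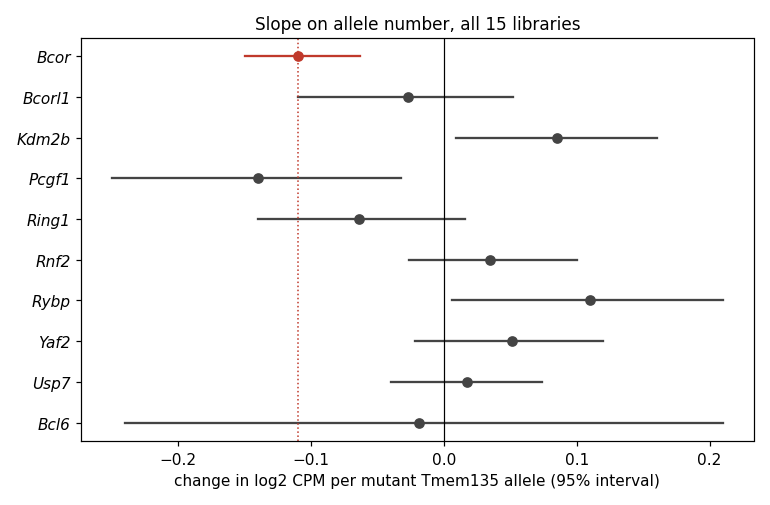
Slope of log2 CPM per mutant allele (horizontal axis, points) with its 95% interval (lines) for each gene over 15 libraries. The dotted line marks the slope of Bcor, -0.11, which the intervals of Pcgf1, Ring1 and Bcl6 include.

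Against WT, the pairwise tests called 1 of 9 partners in FUN025/+ eyecups, where 13.7% of all genes were called (6.61% lower and 7.09% higher). They called 0 of 9 in FUN025/FUN025 eyecups, where 14% of all genes were called (7.02% lower and 7.03% higher). By edgeR's quasi-likelihood test 4 of 9 partners had an unadjusted p under 0.05 in each of the 2 comparisons, 2 lower and 2 higher each time, against 28.8% and 28.6% of all genes. DESeq2's Wald test called 2 partners in FUN025/+ and 0 in FUN025/FUN025 eyecups, where it called 15.7% and 16% of all genes. Between FUN025/FUN025 and FUN025/+ eyecups 0 of 9 partners were called and 0 had an unadjusted p under 0.05, with 0 called by DESeq2 as well. Of all genes 0.522% were called, 6.23% had such a p and DESeq2 called 0.901%. Both comparisons with WT share the same 4 control libraries.

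The alternative ligases are taken side by side. Ring1 (chr17:34020792-34024680, minus strand), one of the alternative ubiquitin ligases, held 35.5, 35.6, 36.4 and 41.4 CPM in WT libraries. Its FUN025/+ libraries ran from 29.5 to 34.4 CPM with a median of 32.3, and its FUN025/FUN025 libraries held 35.8, 31.8, 31.6, 36 and 33.5 CPM. All FUN025/+ libraries lay below all WT libraries, and the FUN025/FUN025 libraries overlapped both. Ring1 was the partner called in FUN025/+ eyecups, with a log2 fold change of -0.21 (SE 0.0619, adjusted p = 0.0283, edgeR quasi-likelihood test), a percent change of -13.8. In FUN025/FUN025 eyecups the value was -0.14 (SE 0.0643, adjusted p = 0.156). The Ring1 call was lost without WT replicate 4, its highest library (log2 -0.15, adjusted p = 0.143), with the GC offset (-0.12, adjusted p = 0.169), and without 4 other libraries, WT replicate 3 and FUN025/+ replicates 1, 2 and 5 (adjusted p 0.0509 to 0.0576). It was also lost with muscle and rod marker covariates, where the log2 value was -0.33 (adjusted p = 0.216), with the endothelial covariate (-0.23, adjusted p = 0.0578) and with only the genotypes compared (-0.21, adjusted p = 0.0502).

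Rnf2, the other ligase and the more studied of the pair, held 52.6, 52, 48.2 and 45.9 CPM in WT, 49.2 to 54.5 CPM with a median of 51 in FUN025/+, and 52, 56.7, 52.7, 53 and 46.7 CPM in FUN025/FUN025 libraries. The genotypes overlapped throughout. The log2 fold change of Rnf2 was 0.043 (95% interval -0.073 to 0.16) in FUN025/+ and 0.072 (-0.048 to 0.19) in FUN025/FUN025 eyecups. Part of the Rnf2 exons, 3.83%, overlaps Trmt1l, and the counting was not stated to use strand. Per exon length the ratio of Ring1 to Rnf2 had a mean of 0.96 in WT, 0.798 in FUN025/+ and 0.826 in FUN025/FUN025 libraries. Its log2 difference between FUN025/+ and WT was -0.26, with an exact two-sided permutation p of 0.00952 (n = 6 and 4) and 0.0571 after adjustment over 6 such tests. Between FUN025/FUN025 and WT the difference was -0.21 (exact permutation p = 0.143, adjusted 0.286, n = 5 and 4).

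Pcgf1, the PCGF protein that defines PRC1.1, was the partner with the largest fitted decrease, and it did not pass the adjusted threshold. Its WT libraries held 9.4, 9.36, 9.64 and 10.1 CPM. The FUN025/+ libraries ran from 7.29 to 8.89 CPM with a median of 8.04. The FUN025/FUN025 libraries held 7.62, 8.08, 7.95, 9.04 and 6.71 CPM. Each WT library lay above each mutant library. The log2 fold change was -0.27 (SE 0.0929, adjusted p = 0.0631, edgeR) in FUN025/+ and -0.29 (SE 0.0968, adjusted p = 0.0559) in homozygotes, and the slope was -0.14 (95% interval -0.25 to -0.032, adjusted p = 0.0965 by limma). Without FUN025/+ replicate 1 the first value passed (adjusted p = 0.0492), and without FUN025/FUN025 replicate 4 the second did (adjusted p = 0.037). Under the other alternatives none of the 3 values passed, and with muscle and rod covariates they were -0.14 (adjusted p = 0.807), -0.18 (adjusted p = 0.665) and -0.063 (adjusted p = 0.747). Groups did not overlap for 2 of 9 partners between FUN025/+ and WT (Ring1 and Pcgf1), against 10.9% of all genes, and for 1 of 9 between FUN025/FUN025 and WT (Pcgf1), against 14.8%. Between the mutant genotypes this was the case for 0 of 9, against 1.12%. The Pcgf1 counts were low, 74 to 193 per library, and 23.1% of its exon sequence in stretches of 31 bases is found in other genes, most often in the pseudogene Gm8930, which held at most 3 counts in any library.

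For the paralogous scaffold no fall was detected. Bcorl1 (chrX:48341358-48408049, plus strand) held 22.9, 21.1, 22.8 and 21.4 CPM in WT, 18 to 24.2 CPM with a median of 22.4 in FUN025/+, and 20.2, 22.5, 21, 22 and 20.4 CPM in FUN025/FUN025 libraries. The genotypes overlapped. Against WT the log2 fold change was -0.005 (95% interval -0.16 to 0.15) and -0.054 (-0.21 to 0.10), and the slope was -0.027 (-0.11 to 0.052). Per exon length Bcor exceeded Bcorl1 by a mean ratio of 3.65 in WT, 3.48 in FUN025/+ and 3.26 in FUN025/FUN025 libraries, a description since Bcor is in it.

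The CpG-island reader Kdm2b and the RYBP-type subunits had higher means in the mutants, none of them past the adjusted threshold. Kdm2b, also a histone demethylase, held 21.9, 19.8, 21.6 and 18.1 CPM in WT, 20.6 to 24.3 CPM with a median of 22.5 in FUN025/+, and 23.8, 22.6, 21.8, 23 and 23.5 CPM in FUN025/FUN025 libraries. Only the lowest FUN025/FUN025 library reached into the WT range. Its log2 fold change was 0.16 (SE 0.0679, adjusted p = 0.126) and 0.17 (SE 0.0704, adjusted p = 0.107), and its slope was 0.085 (95% interval 0.0091 to 0.16, adjusted p = 0.151). Of the Kdm2b exon bases 8.74% overlap other genes, among them Rnf34.

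Rybp held 24.7, 23.4, 23.4 and 18 CPM in WT, 23.5 to 31 CPM with a median of 26.7 in FUN025/+, and 25.7, 28.3, 24.3, 26.6 and 25.7 CPM in FUN025/FUN025 libraries. One WT library was well below the others, and both mutant genotypes overlapped WT. The log2 fold change was 0.26 (SE 0.087, adjusted p = 0.0561) in FUN025/+ and 0.22 (SE 0.0902, adjusted p = 0.108) in FUN025/FUN025 eyecups. The FUN025/+ value passed with DESeq2's Wald test (0.26, adjusted p = 0.044), with counts thinned to the smallest library (0.27, adjusted p = 0.0466), without WT replicate 1 (0.31, adjusted p = 0.0365) and without FUN025/+ replicate 6 (0.29, adjusted p = 0.034). It was 0.14 with muscle and rod covariates (adjusted p = 0.741) and 0.17 without WT replicate 4, the lowest WT library (adjusted p = 0.186). Yaf2, its paralog, held 29.4 to 29.8 CPM in WT, 28.9 to 34.4 CPM in FUN025/+ and 29 to 35.5 CPM in FUN025/FUN025 libraries. The Yaf2 log2 fold change was 0.11 in each mutant genotype (95% intervals -0.027 to 0.24 and -0.03 to 0.25). The ratio of Rybp to Yaf2 per exon length was 0.298 in WT, 0.33 in FUN025/+ and 0.325 in FUN025/FUN025 libraries, with exact permutation p of 0.143 (n = 6 and 4) and 0.381 (n = 5 and 4) against WT.

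Usp7, which removes ubiquitin from several nuclear proteins, held 123, 128, 127 and 125 CPM in WT, 117 to 140 CPM with a median of 127 in FUN025/+, and 122, 139, 129, 122 and 132 CPM in FUN025/FUN025 libraries. The mutant libraries lay on both sides of the narrow WT range. Its log2 fold change was 0.027 (95% interval -0.083 to 0.14) in FUN025/+ and 0.037 (-0.077 to 0.15) in FUN025/FUN025 eyecups.

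Bcl6, the DNA-binding partner, varied most between mice of one genotype. It held 32.2, 69.5, 37.2 and 50 CPM in WT, 40.5 to 58.5 CPM with a median of 48.4 in FUN025/+, and 34.7, 49.9, 61.4, 42.4 and 37.7 CPM in FUN025/FUN025 libraries. The coefficient of variation was 35.2% in WT, where that of Bcor was 2.03%. Its log2 fold change was 0.037 (95% interval -0.43 to 0.50) in FUN025/+ and -0.062 (-0.54 to 0.42) in FUN025/FUN025 eyecups, intervals wide enough to hold the Bcor difference on either side. In FUN025/FUN025 eyecups the Bcl6 value turned to 0.19 without WT replicate 2. Markers of B lymphocytes, the cells in which Bcl6 is best known, summed to between 9.36 and 22.5 CPM over all libraries.

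Per kilobase of exon, the level a reader can compare between genes, Usp7 and Yaf2 stood highest in WT at 16.2 ± 0.251 and 15.8 ± 0.106 CPM per kb (SD, n = 4). Rnf2 and Ring1 followed at 12 ± 0.773 and 11.5 ± 0.863, then Bcor at 9.43 ± 0.192, Bcl6 at 7.05 ± 2.48 and Pcgf1 at 5.83 ± 0.196 CPM per kb. Rybp had 4.72 ± 0.634, Bcorl1 2.59 ± 0.109 and Kdm2b 1.87 ± 0.162 CPM per kb. WT libraries overlapped between the neighbours Usp7 and Yaf2, Rnf2 and Ring1, Bcor and Bcl6, and Bcl6 and Pcgf1, so the order within these pairs is not resolved by range. In FUN025/FUN025 eyecups Bcor was at 8.12 ± 0.221 CPM per kb, next after Ring1 at 10.4 ± 0.653 (n = 5). Exon length is that of all annotated transcripts joined, which understates the level of a gene that uses short transcripts.

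**Figure D3:**
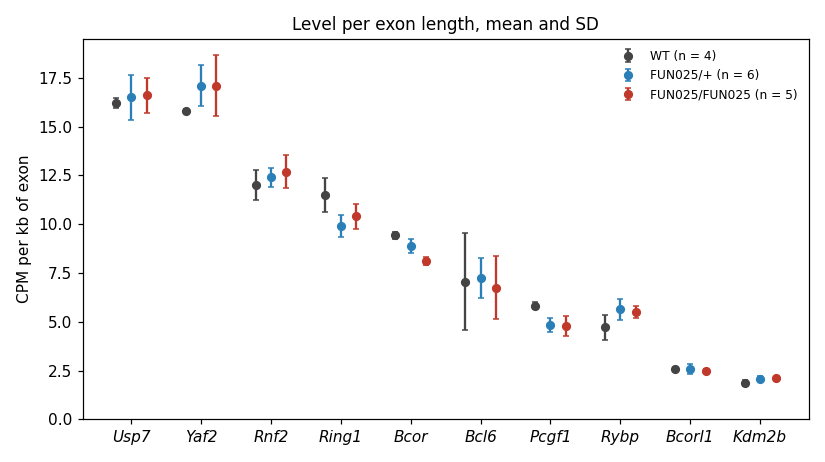
Mean level per kilobase of exon with its SD (vertical axis, linear from 0) for each gene in each genotype, ordered by the WT mean. Usp7 and Yaf2 stand highest at 16.2 and 15.8 CPM per kb in WT and Kdm2b lowest at 1.87.

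Over the 15 libraries, Pearson's r with the log2 CPM of Bcor was 0.57 for Pcgf1, 0.44 for Bcorl1, 0.29 for Ring1, -0.072 for Bcl6, -0.24 for Usp7, -0.33 for Rybp, -0.34 for Rnf2, -0.36 for Yaf2 and -0.60 for Kdm2b. The genes most like Bcor among 17571 genes with a mean of at least 1 CPM were Nog (r = 0.92), S1pr4 (0.91), Gphn (0.91), Olfm1 (0.88) and Shank3 (0.88), none of them a Polycomb subunit. Nog encodes the BMP antagonist noggin, S1pr4 a sphingosine 1-phosphate receptor, Gphn the scaffold protein gephyrin of inhibitory synapses, and Shank3 a scaffold of excitatory synapses. The most opposed were Tuba1a (-0.92), a tubulin, the lipid desaturases Scd2 (-0.91) and Fads1 (-0.91), Kcnab1 (-0.91) and Idh1 (-0.90), a cytosolic isocitrate dehydrogenase. These are descriptions over libraries that share genotype and depth, and carry no test.

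Bcor and Bcorl1 are on the X chromosome. Of the 5 protein-coding genes that follow Bcor on the chromosome, Atp6ap2 (log2 0.16, adjusted p = 0.0088), Med14 (0.25, adjusted p = 0.0275) and Usp9x (0.38, adjusted p = 0.00112) were called higher in FUN025/+ eyecups by edgeR. Med14 (0.25, adjusted p = 0.0281) and Usp9x (0.46, adjusted p = 0.000233) were called higher in FUN025/FUN025 eyecups too. None of the 5 was called lower, and the 5 protein-coding genes on the other side had a mean of 0 CPM. Of 590 tested X-linked genes, 17 were called lower and 69 higher in FUN025/+, and 20 lower and 56 higher in FUN025/FUN025 eyecups. Of all genes, 6.61% and 7.02% were called lower and 7.09% and 7.03% higher. With Xist as a covariate, the Bcor slope was -0.11.

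Beyond PRC1.1, the other PRC1 subunits moved in both directions. Of 33 tested, 4 were called lower and 4 higher in FUN025/+, and 5 lower and 5 higher in FUN025/FUN025 eyecups, where 13.7% and 14% of all genes were called. Their median log2 fold change was -0.061 and -0.043, against -0.0023 and -0.0071 over all genes. On allele number 2 of 33 passed at an FDR of 0.01, Cbx3 (slope 0.22) and Phc2 (slope -0.19), against 2.14% of all genes. Skp1a, the protein listed with PRC1.1 as SKP1, was at -0.12 (SE 0.0496, adjusted p = 0.116) in FUN025/FUN025 eyecups.

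Cbx3, which encodes the heterochromatin protein HP1 gamma and is found in the PRC1.6 variant, held 52.7, 53.2, 51.9 and 47.3 CPM in WT, 68.4 to 76.9 CPM with a median of 72.8 in FUN025/+ and 67.3 to 74.8 CPM in FUN025/FUN025 libraries. It rose by a log2 of 0.50 (SE 0.0498, adjusted p = 2.6e-06) and 0.47 (SE 0.0515, adjusted p = 6.83e-06). All mutant libraries lay above all WT libraries. Of the Cbx3 exon sequence, 10% in stretches of 31 bases is shared with other genes. Phc2, a polyhomeotic subunit of canonical PRC1, held 89.5, 97.3, 96.9 and 103 CPM in WT, 73 to 79.6 CPM in FUN025/+ and 70.9 to 74.9 CPM in FUN025/FUN025 libraries. It fell by 0.35 and by 0.40 on the log2 scale (adjusted p = 6.18e-05 and 1.72e-05 by edgeR), again without overlap of WT and mutant libraries. Phc3, the paralog, rose by 0.34 in FUN025/+ eyecups (adjusted p = 0.000516).

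E2f6, the repressor that recruits PRC1.6, separated the mutant genotypes. It held 56.4, 50.3, 53.4 and 52.4 CPM in WT, 42 to 55.9 CPM with a median of 49.9 in FUN025/+, and 68.2, 73.2, 81.8, 66.9 and 70.4 CPM in FUN025/FUN025 libraries. Every FUN025/FUN025 library lay above every other library, and FUN025/+ overlapped WT. E2f6 rose by 0.57 on the log2 scale between FUN025/+ and FUN025/FUN025 eyecups (SE 0.0696, adjusted p = 0.000146, edgeR), the 1 call among 33 in that comparison, where 0.522% of all genes were called, and by 0.44 against WT (SE 0.0766, adjusted p = 0.000857). The kinase subunits Csnk2b, in FUN025/+ eyecups (-0.25, adjusted p = 0.00227), and Csnk2a2, in FUN025/FUN025 eyecups (-0.25, adjusted p = 0.00332), were lower.

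**Figure D4:**
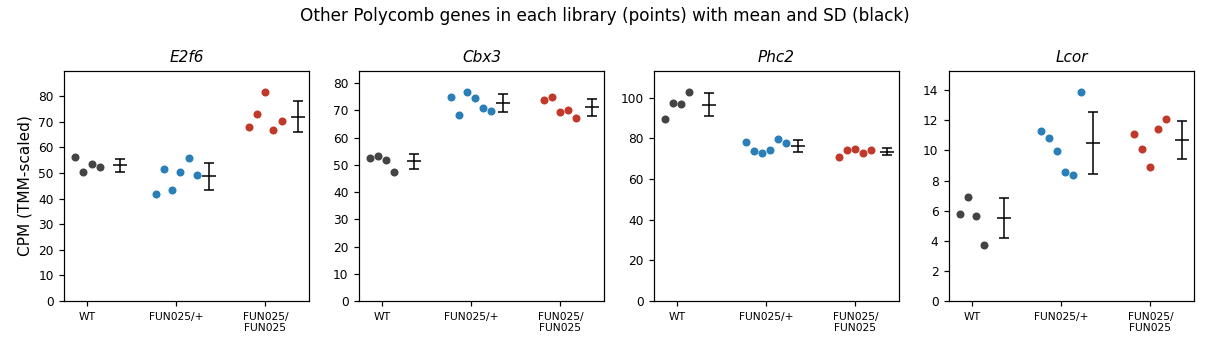
Level (CPM, linear axis from 0) of E2f6, Cbx3, Phc2 and Lcor in every library by genotype, with the mean and SD beside the points (n = 4, 6 and 5). E2f6 is high only in FUN025/FUN025 (mean 72.1 against 53.1 and 48.7 CPM), whereas Cbx3, Phc2 and Lcor differ from WT in both mutant genotypes.

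Of 14 PRC2 subunits, which methylate histone H3 lysine 27, 2 were called in each mutant genotype against WT, all higher, a share near the 13.7% and 14% of all genes. Lcor, whose gene also encodes a PRC2 accessory protein, held 5.79, 6.89, 5.65 and 3.73 CPM in WT, 8.37 to 13.9 CPM in FUN025/+ and 8.92 to 12.1 CPM in FUN025/FUN025 libraries, and rose by 0.93 (adjusted p = 0.00102) and 0.96 (adjusted p = 0.000919) without overlap. Suz12, a core subunit, rose by 0.18 in FUN025/+ eyecups (adjusted p = 0.042), and the accessory protein Mtf2 by 0.20 in FUN025/FUN025 eyecups (adjusted p = 0.0427). Of 11 PR-DUB subunits, which remove the H2A mark that PRC1 adds, Ogt rose in both genotypes (0.23 in each, adjusted p = 0.00329 and 0.00445) and Foxk2 fell by 0.17 in FUN025/+ eyecups (adjusted p = 0.0364). These were the only PR-DUB calls against WT, 2 and 1 of 11, beside 13.7% and 14% of all genes.

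Of 16 corepressors that work with BCL6 besides BCOR, 3 were called lower and 1 higher in each mutant genotype, against 6.61% and 7.02% of all genes called lower. Hdac4 fell by 0.25 and by 0.29 (adjusted p = 0.0468 and 0.0291), and Tbl1xr1 rose by 0.17 and by 0.22 (adjusted p = 0.0193 and 0.00576). Of the Hdac4 exon bases 22.4% overlap a noncoding gene, and the Tbl1xr1 calls were lost with the GC offset. Of 22 genes known as BCL6 targets 20 were tested, with 2 called in each mutant genotype, all lower, against 6.61% and 7.02% of all genes called lower. Their log2 fold changes were negative for 19 of 20 in FUN025/+ (median -0.16) and 12 of 20 in FUN025/FUN025 eyecups (median -0.059). Of all genes 50.5% and 51.4% were negative, with medians of -0.0023 and -0.0071. The called targets were Nfkb1 in both (-0.18 and -0.17, adjusted p = 0.00724 and 0.0135), the cytokine inhibitor Socs3 in FUN025/+ (-0.55, adjusted p = 0.00433) and the endothelial receptor S1pr1 in FUN025/FUN025 eyecups (-0.41, adjusted p = 0.00228). With the endothelial covariate the S1pr1 value was -0.36 (adjusted p = 0.126). On allele number S1pr1 was the 1 of 20 past an FDR of 0.01 (slope -0.20, adjusted p = 0.00481 by limma; -0.18, adjusted p = 0.167, with the endothelial covariate).

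Developmental regulators that Polycomb marks in embryonic stem cells were mostly at low counts, and 45 of 80 did not pass the filters. Of the 35 tested, 5 were called lower and 0 higher in each mutant genotype, where 6.61% and 7.02% of all genes were called lower and 7.09% and 7.03% higher, with median log2 fold changes of -0.14 and -0.18. Among those called with a mean of at least 1 CPM, Pax2 had the largest fall in FUN025/+ eyecups (-1.41, adjusted p = 0.023, from 2.28 to 0.866 CPM). By the same limit the largest falls in FUN025/FUN025 eyecups were Gata2 (-0.55, adjusted p = 0.00174), a blood and endothelial factor, and Lhx2 (-0.40, adjusted p = 0.0148), an eye field factor. The Gata2 value was -0.17 (adjusted p = 0.453) with the endothelial covariate. On allele number Gata2 and Six3 passed at an FDR of 0.01, with slopes of -0.27 and -0.13, where 0.869% of all genes had a called negative slope. With the endothelial covariate these slopes were -0.081 (adjusted p = 0.547) and -0.065 (adjusted p = 0.394). The list of tested genes holds only those expressed in some eyecups, so genes at 0 in all libraries are outside the count.

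Pparg, the nuclear receptor of adipocytes, was at 6.11 ± 1.31 CPM (SD, n = 4) in WT, 6.86 ± 1.6 CPM (n = 6) in FUN025/+ and 6.69 ± 1.39 CPM (n = 5) in FUN025/FUN025 eyecups. Its log2 fold change was 0.16 (95% interval -0.22 to 0.55) and 0.13 (-0.27 to 0.53). Of 17 genes in the list of Pparg and its targets, 4 were called lower and 0 higher in FUN025/+, and 2 lower and 2 higher in FUN025/FUN025 eyecups, where 13.7% and 14% of all genes were called. Pdk4, an inhibitor of pyruvate dehydrogenase, fell in both (-0.90 and -0.62, adjusted p = 0.000324 and 0.00664; the latter -0.36 with the endothelial covariate, adjusted p = 0.339), and the lipid carrier Fabp4 fell in FUN025/+ eyecups (-0.97, adjusted p = 0.0166). In FUN025/FUN025 eyecups Plin2, the coat protein of lipid droplets, rose by 0.36 (adjusted p = 0.0122; 0.089 with muscle and rod covariates, adjusted p = 0.769), Acsl1 rose by 0.36 (adjusted p = 0.00437) and Cebpb fell by 0.69 (adjusted p = 0.0278). Between FUN025/FUN025 and FUN025/+ eyecups Plin2 was the 1 of 17 called (0.45, adjusted p = 0.00815 by edgeR), where 0.522% of all genes were called. That call was lost with the replicate block (0.43, adjusted p = 0.0961). On allele number Acsl1 was the 1 of 17 past an FDR of 0.01 (slope 0.18, adjusted p = 0.00692 by limma).

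**Figure D5:**
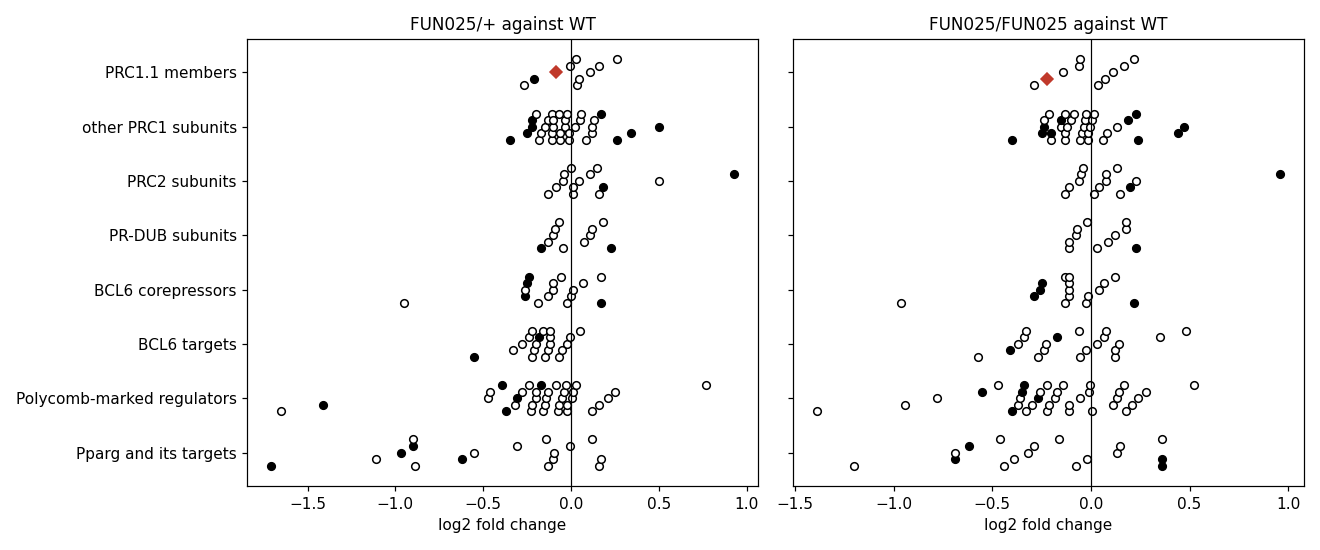
Log2 fold change against WT (horizontal axis) of every tested gene of the lists, in FUN025/+ (left) and FUN025/FUN025 eyecups (right). Filled circles passed an adjusted p of 0.05, open circles did not, and the diamond is Bcor, shown without a test. Among all tested genes 13.7% (left) and 14% (right) passed, and the open PRC1.1 circles on the right are its 9 other members.

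Other tissue in the samples also moved between genotypes, where 6.61% (FUN025/+) and 7.02% (FUN025/FUN025) of all genes were called lower than WT. Rod markers summed to 218 to 2156 CPM in WT, 81.9 to 625 CPM in FUN025/+ and 86.9 to 390 CPM in FUN025/FUN025 libraries, and all 8 had lower means in both mutants with 0 of 8 called in either. Striated muscle markers summed to 3577 to 6829, 1934 to 5083 and 3047 to 3756 CPM, with 3 of 8 and 2 of 8 called lower. Retinal pigment epithelium markers summed to between 16279 and 21747 CPM over all libraries with 0 of 8 called. Of 43 calls that the rule for named genes took from the lists around PRC1.1, 34 were lost with muscle and rod markers as covariates, 24 with the endothelial covariate and 14 with the GC offset. The log2 value was at least as large as the reported one for 16 of the 34, 7 of the 24 and 0 of the 14. With muscle and rod covariates, for example, Phc3 was at 0.34 (adjusted p = 0.0782) and Socs3 at -0.88 (adjusted p = 0.0827) in FUN025/+ eyecups. That fit called 245 of all genes in FUN025/+ and 651 in FUN025/FUN025 eyecups, against 2600 and 2666 without the covariates. Values that shrank with them by more than 1.5 times were, besides Plin2, those of Foxk2 (-0.053) and Pax2 (-0.6) in FUN025/+, of Hdac4 in both (0.012 and -0.055), and the slopes of Cbx3 (0.12, adjusted p = 0.268) and Phc2 (-0.12, adjusted p = 0.0996). With the endothelial covariate Lcor was at 0.63 and Ogt at 0.15 in FUN025/FUN025 eyecups. With the GC offset Phc2 was at -0.23, still called, Suz12 at 0.1, Foxk2 at -0.11 and Tbl1xr1 at 0.096 in FUN025/+ eyecups, and Mtf2 at 0.1 in FUN025/FUN025 eyecups. Fabp4 was at -0.61 without WT replicate 4. The calls kept under every alternative were those of Cbx3 and E2f6 in pairwise comparisons and of Phc2 in FUN025/FUN025 against WT. Some other calls were lost when a single library was left out, while others, such as those of Lcor, Ogt and Pdk4 against WT, were not. The slope calls were kept under 17 of 28 alternatives for Cbx3, Gata2 and Acsl1, 16 for Six3, 19 for S1pr1 and 25 for Phc2, and leaving out 1 mouse ended that of Cbx3 for 6 different mice, of Gata2 and S1pr1 for 6 each, of Six3 for 7 and of Acsl1 for 8. The pairwise calls lost without several single mice were Hdac4 in FUN025/+ (10 mice) and FUN025/FUN025 (4), Suz12 (8), Mtf2 (7), Foxk2 (6) and Cebpb (6). Without WT replicate 4 the calls of Lhx2, Pax2 and Fabp4 were lost, without WT replicate 3 that of Nfkb1 in FUN025/FUN025, and without WT replicate 2 that of Tbl1xr1 in FUN025/+ eyecups. The part of other tissue in these calls was not tested.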

How the data were processed

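RNA-seq read counts of 55421 Ensembl genes were deposited by the authors for 15 mouse eyecup libraries, 1 per mouse, as raw counts without normalization. The submitters' processing notes name FastQC 0.11.8, Trimmomatic 0.39, HISAT2 2.1.0, SAMtools, featureCounts 2.0.0 and GRCm38; a strand setting is not given in the sources used here. Libraries were poly(A) selected, and genotypes came from the sample labels. Symbols and exon lengths were taken from GENCODE M21 (GRCm38), in which 55240 of the identifiers were found.

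The least variable 15% of genes and then, by filterByExpr, those with low counts were dropped, leaving 18979. Pairwise tests were edgeR 4.0.16 quasi-likelihood tests with TMM scaling, all 15 mice in one fit and a Benjamini-Hochberg threshold of 0.05. The trend was a limma 3.58.1 fit of log2 CPM (prior count 2) on 0, 1 or 2 mutant alleles at an FDR of 0.01. Ratios of paralogs were compared by exact permutation tests. The scripts were tested on simulated counts. Alternatives used DESeq2 1.42.0 (R 4.3.3), other filters, scalings, covariates, a GC offset, thinned counts, a replicate block and leaving out each mouse; the endothelial covariate, and all alternatives for the gene lists, were added after seeing the data.

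The members and the gene lists were chosen with earlier results of these data known. Genes named are the members, Pparg, Tmem135, the 5 protein-coding genes on each side of Bcor past the threshold, the 5 most and 5 least correlated with Bcor, and from each list and comparison up to 2 rises and 2 falls, the largest past the threshold with a mean of at least 1 CPM. Skp1a was named after its values were seen. Total counts of 10903183 to 20029919 put a limit of 3 counts at 0.15 to 0.282 CPM, for counting error alone. Each library was 1 mouse, so p-values measure the spread between mice. No pair of libraries of one genotype agreed within counting noise (chi-square 3.06 to 17.2 per gene). Of the markers, melanocyte, scleral fibroblast, macrophage, Schwann cell and lens lists were summed too, and the macrophage marker Cd68 was called higher in FUN025/FUN025 eyecups. Some genes that the naming rule selects are not reported here.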

Additional observations from a re-analysis of the deposited data

Results flagged for a closer look

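Among 30 groups of values (10 genes in 3 genotypes), 2 held a library far from the others, where chance gives about 1 in 20. Bcorl1 in FUN025/+ replicate 5 stood at 18 CPM, with the nearest library at 22.1 CPM. Ring1 in WT replicate 4 stood at 41.4 CPM, with the nearest library at 36.4 CPM.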

How the results depend on the processing

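The count of 9 partners called was 1 in FUN025/+ eyecups, and it became 2 (Rybp and Ring1) with DESeq2's Wald test and with counts thinned to the smallest library, and 0 with only the genotypes compared, with muscle and rod markers or endothelial markers as covariates, and with the GC offset. Leaving out 1 mouse gave 0 to 2 in FUN025/+ and 0 to 1 in FUN025/FUN025 eyecups, 0 in FUN025/FUN025 against FUN025/+ and 0 on the trend, where 0 were called under every alternative run. With the replicate number as a block (replicate block) the counts were 1, 0, 0 and 0, the 1 being Rybp (0.30, adjusted p = 0.0413) in place of Ring1 (-0.21, adjusted p = 0.0547). Same-numbered libraries of WT and FUN025/+ did not deviate together (correlations -0.38 to -0.081). The correlations were -0.19 to 0.025 for WT with FUN025/FUN025 and -0.038 to 0.13 for FUN025/+ with FUN025/FUN025. The replicate numbers were therefore not taken to pair the mice. Of 1090 member values under an alternative, 50 changed sign, none of them called in the reported fit, and 1020 were counted as kept. For the 9 partners, kept means the same direction and side of the threshold. For Bcor, which carries no test, it means the same direction and a shift below its SD within genotypes, whatever its side of the threshold. In FUN025/+ against WT, Bcorl1 turned to 0.00078 (Wald test), 0.022 (replicate block), 0.0022 (only the genotypes compared) and 0.06 (GC offset), Rnf2 to -0.049 (GC offset), Usp7 to -0.023 (GC offset) and -0.019 (endothelial covariate), and Bcl6 to -0.056 (endothelial covariate). In FUN025/FUN025 against WT, the GC offset gave 0.0089 for Bcorl1, -0.014 for Rnf2 and -0.0097 for Usp7, the endothelial covariate -0.055 for Usp7, and the muscle and rod covariates 0.72 for Bcl6. In FUN025/FUN025 against FUN025/+, Yaf2 was -0.028 (replicate block), -0.0067 (Xist) and -0.0062 (muscle and rod), Kdm2b -0.021 (thinned) and -0.01 (endothelial), and Usp7 -0.0051 (muscle and rod) and -0.037 (endothelial). Slopes that changed sign were 0.0025 for Bcorl1, -0.0066 for Rnf2 and -0.0044 for Usp7 (GC offset), -0.029 for Usp7 (endothelial) and 0.083 for Bcl6 (muscle and rod). Leaving out 1 mouse gave ranges across 0 in FUN025/+ against WT of -0.035 to 0.045 for Bcorl1 and -0.11 to 0.29 for Bcl6, in FUN025/FUN025 against WT of -0.21 to 0.19 for Bcl6, in FUN025/FUN025 against FUN025/+ of -0.012 to 0.042 for Kdm2b, -0.068 to 0.031 for Pcgf1, -0.069 to 0.012 for Rybp, -0.037 to 0.039 for Yaf2, -0.0013 to 0.066 for Rnf2 and -0.018 to 0.042 for Usp7, and for the slope of Bcl6 of -0.098 to 0.07. Hdac4 turned to 0.012 in FUN025/+ against WT with muscle and rod covariates. The Bcor slope was -0.13 to -0.081 over all settings, and its FUN025/+ value, reported as -0.084, was -0.034 with the GC offset and -0.13 with muscle and rod covariates. With the latter Bcl6 was at 0.97 (adjusted p = 0.193) in FUN025/+ eyecups. The causes were not tested.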
